A study of Mus musculus with 15 samples.

Results

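The genes of cholesterol and fatty acid synthesis were followed in the forebrain of mice fed cuprizone, a copper chelator that kills oligodendrocytes and strips the corpus callosum of myelin. The list held 33 genes, taken by symbol from the deposited gene tables, out of 19261 genes with a value in every mouse. It comprised 8 enzymes of the mevalonate and isoprenoid segment, 11 enzymes from squalene to cholesterol, 6 regulators or carriers of sterols, and 8 enzymes of fatty acid synthesis. All 33 passed the filter on low values, more than 0.5 TPM (a share of the library corrected for transcript length) in at least 5 mice, as did 17714 genes in all.

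Each library came from 1 wild-type mouse, and the dissected corpus callosum and neocortex were pooled into 1 RNA sample. The 5 control mice ate standard chow and had no treatment. The 5 vehicle mice ate chow with 0.25% (w/w) cuprizone for 3 weeks and were given vehicle. The 5 siponimod mice had the same cuprizone diet with siponimod, a modulator of sphingosine-1-phosphate receptors, at 3.125 mg/kg. No control group with vehicle but without cuprizone, and no siponimod group without cuprizone, was analysed here, and the labels used gave neither age nor sex.

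Cholesterol does not cross the blood-brain barrier, so the brain makes its own, and most of it lies in myelin. The mevalonate pathway builds isoprenoid units from acetyl-CoA and joins them to farnesyl pyrophosphate, from which squalene and then cholesterol are formed. Fatty acid synthase and the elongases and desaturases behind it supply the acyl chains of myelin lipids. Both branches are switched on by the sterol regulatory element binding proteins (SREBPs), membrane-bound factors that SCAP escorts to the Golgi when sterols are low and that INSIG proteins hold in the endoplasmic reticulum when sterols are high. SREBPs act at promoters together with the CCAAT-binding factor NF-Y.

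Because these factors are known to act at many of the genes, the promoters were searched for their letters. RefSeq promoters (build GRCm38.p6, 250 bases before to 50 after each start) were matched for 26 of the 33 genes. The letters CCAAT, or ATTGG when read on the other strand, stood in at least 1 promoter of 21 of the 26 genes (80.8%), against 41.1% of 27025 genes. Counted per promoter, the shares were 64.7% of 34 promoters of these genes and 37.4% of all 32851 promoters. CCAAT was found for 6 of 7 matched mevalonate genes, 9 of 9 sterol enzymes, 4 of 5 regulators and 2 of 5 fatty acid enzymes. The sterol regulatory element letters TCACNCCAC, searched on both strands, were found for 1 of the 26 genes (3.85%), Hmgcs1, against 1.44% of 27025 genes. Per promoter, the shares were 2.94% of the 34 and 1.24% of all. Only this exact pattern was searched, so its absence does not show that a gene lacks such an element. The motifs do not overlap each other in the sequences shown, and a match is a run of letters, not evidence of binding. The promoters shown are those of 3 genes that fell after cuprizone and have a single promoter entry, and of Fads2, a desaturase gene that was not called. Each is written 5′ to 3′ on the gene's own strand, with both motifs in capitals.
Hmgcs1, chr13:119690101-119690400, plus strand: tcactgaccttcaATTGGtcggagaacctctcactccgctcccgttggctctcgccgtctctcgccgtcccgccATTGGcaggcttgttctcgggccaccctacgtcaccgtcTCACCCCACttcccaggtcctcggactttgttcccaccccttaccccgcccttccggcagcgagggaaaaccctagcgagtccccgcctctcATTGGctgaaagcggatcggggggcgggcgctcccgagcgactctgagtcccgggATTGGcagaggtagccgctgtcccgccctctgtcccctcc
Insig1, chr5:28071162-28071461, plus strand: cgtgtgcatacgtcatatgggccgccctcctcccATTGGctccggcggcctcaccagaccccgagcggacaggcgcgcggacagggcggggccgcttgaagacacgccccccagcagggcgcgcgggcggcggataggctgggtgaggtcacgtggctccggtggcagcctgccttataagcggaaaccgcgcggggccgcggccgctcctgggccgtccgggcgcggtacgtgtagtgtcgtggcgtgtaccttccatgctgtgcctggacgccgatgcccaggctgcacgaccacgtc
Elovl6, chr3:129532136-129532435, plus strand: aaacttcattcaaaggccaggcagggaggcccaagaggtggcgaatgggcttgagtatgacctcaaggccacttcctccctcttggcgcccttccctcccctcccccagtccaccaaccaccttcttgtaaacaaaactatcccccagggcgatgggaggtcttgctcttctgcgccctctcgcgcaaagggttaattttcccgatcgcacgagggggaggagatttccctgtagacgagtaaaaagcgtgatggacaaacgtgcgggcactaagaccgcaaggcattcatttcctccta
Fads2, chr19:10101454-10101753, minus strand: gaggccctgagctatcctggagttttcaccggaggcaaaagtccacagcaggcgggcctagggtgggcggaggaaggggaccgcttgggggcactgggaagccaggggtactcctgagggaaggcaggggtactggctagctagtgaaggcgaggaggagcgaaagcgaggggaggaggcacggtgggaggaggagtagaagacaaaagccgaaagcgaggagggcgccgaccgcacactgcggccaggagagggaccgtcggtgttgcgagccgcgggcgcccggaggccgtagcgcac
The Hmgcs1 promoter held TCACCCCAC, 137 bases before the start, and 4 copies of ATTGG. Insig1 held 1 ATTGG. Neither motif was present in the Elovl6 and Fads2 windows, so the genes shown that fell did not all carry these letters.

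TPM are shares of a library, and 1 library had an unusual makeup. The brain RNA Bc1 took 35.3% of the TPM of vehicle mouse 1, against 6.02% to 10.8% in the other 14 mice, and the median TPM there was 5.54, against 11.8 to 12.99. Every library was therefore scaled to the same median over the tested genes (factor 2.14 for vehicle mouse 1, 0.912 to 1.00 for the others), and levels are given as scaled TPM. Siponimod mouse 1 did not differ from the rest in Bc1 or median, but was lowest of its group for 26 of the 33 genes. Results are given with all 15 mice and, because earlier results of these data set both mice apart, with the 13 mice left without vehicle mouse 1 and siponimod mouse 1. A gene is said to have risen or fallen where limma, fitted to log2(scaled TPM + 0.5) of all tested genes with the 3 groups in 1 model, gave an adjusted p below 0.05.

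Markers of neurons, astrocytes, microglia, endothelium and oligodendrocytes were detected in every mouse. These are cell type markers and not regional ones, so they do not check which brain region was dissected. All 9 oligodendrocyte markers fell in vehicle mice, and their summed scaled TPM was 1669.7 to 2565 in control, 311 to 671 in vehicle and 377 to 743 in siponimod mice, with none at 0. The neuron sums overlapped, at 3975 to 4219.8, 3718 to 4240.0 and 3784 to 4174, and 0 of 6 neuron markers were called. The astrocyte sums overlapped too, at 732 to 829, 672 to 849 and 762 to 893, while 2 of 6 markers (Aldh1l1 and Gjb6) rose in vehicle mice with 15 mice and 3 (Slc1a3 too) with 13. In siponimod mice 1 astrocyte marker (Aldh1l1) rose with 15 mice and 2 (Gjb6 too) with 13. The microglia sums were 201 to 227, 243 to 546 and 222 to 324, with 0 of 6 markers called in vehicle mice with 15 mice and 4 of 6 with 13, and 0 in siponimod mice in either fit. The endothelial sums were 111 to 128, 94.9 to 202 and 103 to 114. Both the microglia maximum of 546 and the endothelial maximum of 202 belonged to vehicle mouse 1. None of the 4 endothelial markers was called with 15 mice, while with 13 mice Cldn5 fell in vehicle mice and Slco1c1 in siponimod mice. In siponimod mice 7 of 9 oligodendrocyte markers fell with 15 mice and 9 of 9 with 13. In bulk tissue, fewer cells of a type and less RNA per cell cannot be told apart. The part of these cell-type shifts in the results below was not tested.

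After cuprizone and vehicle, 5 genes of the list fell and 1 rose. Those that fell were Hmgcs1 and Sqle, which make HMG-CoA and squalene epoxide, Dhcr7, which makes cholesterol from 7-dehydrocholesterol, Insig1, the sterol-sensing retention protein, and Elovl6, an elongase of long-chain fatty acids. They were between 1.29-fold and 1.42-fold lower. Srebf1, the SREBP gene tied mainly to fatty acid synthesis, rose 1.57-fold. Of all 17714 tested genes 2.41% were called, 1.03% lower and 1.38% higher, so the 5 of 33 that fell stood above the background share and the 1 of 33 that rose did not stand clear of it. With 13 mice, 14 fell and 1 rose, against a background of 4.36% called, 1.95% lower and 2.41% higher. All 6 genes called with 15 mice were among those 15. Without vehicle mouse 1 alone, 11 of the 33 were called, as were 672 of all tested genes. Siponimod mouse 1 is in neither group here and bears on this comparison through the shared spread.

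Most of the list lay below control whether or not it was called. Of the 33 genes, 26 had a log2 fold change below 0, and their median was -0.26, against 0.0073 over all tested genes. With 13 mice 27 lay below 0 and the median was -0.17, against -0.014. In 12 genes every vehicle mouse lay below every control mouse (1.88% of all tested genes did so), and in 18 genes with 13 mice (3.45%). No gene of the list was higher in every vehicle mouse than in every control mouse with 15 mice, and 1, Srebf1, was with 13 (2.68% and 4.03% of all genes). The authors' deposited table gave 15 of the 33 as lower and 2, Srebf1 and Fads1, as higher at an adjusted p below 0.05, against 2.8% and 3.86% of its 21288 genes.

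**Figure D1:**
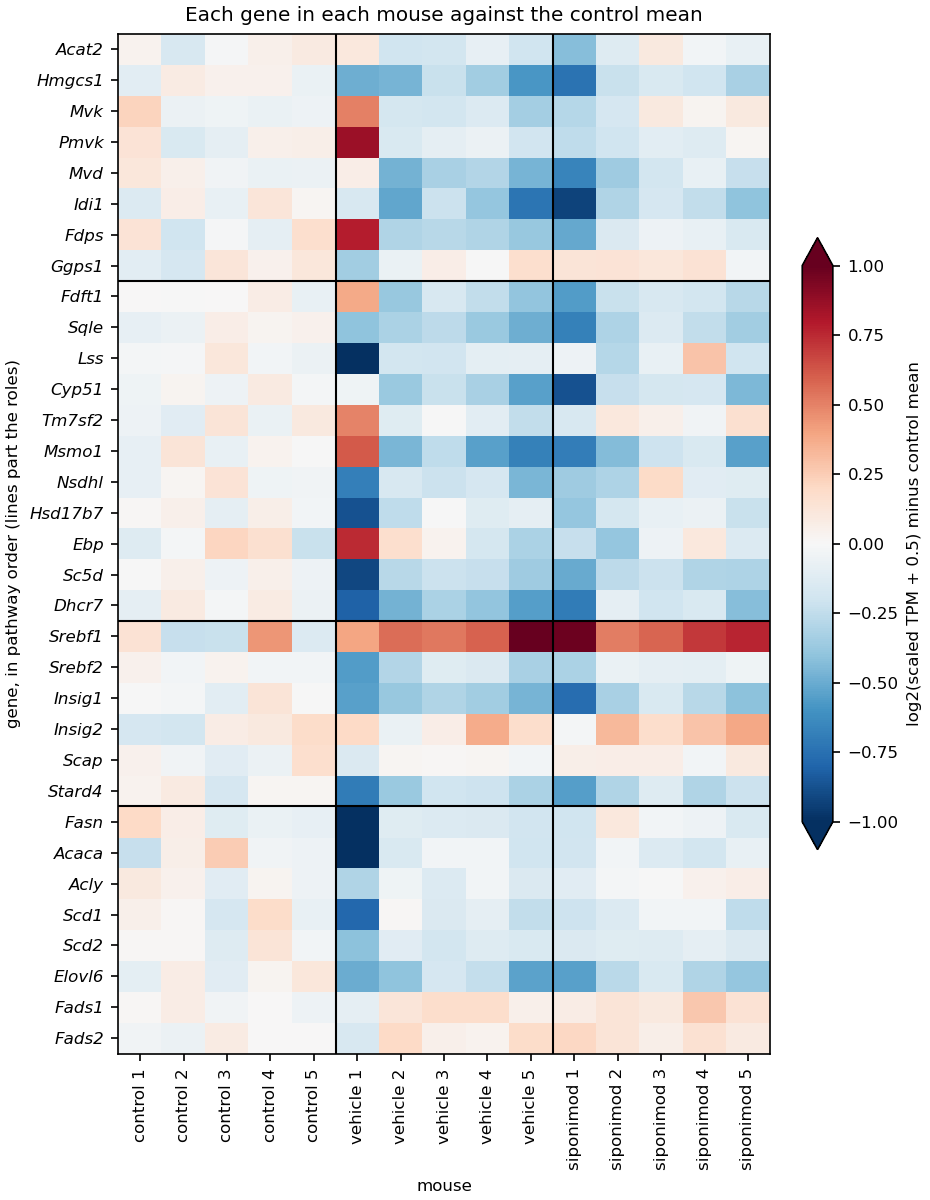
Heat map of the log2 difference of each of the 33 genes (rows, in pathway order) in each of the 15 mice (columns) from the mean of the control mice. Vehicle mouse 1 is the column with both the highest and the lowest values of many genes, Srebf1 is above the control mean in all 10 cuprizone-fed mice, and Hmgcs1, Sqle, Dhcr7, Insig1 and Elovl6 are below it in all 10.

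The calls lay close to the threshold. The adjusted p of the 6 ranged from 0.0284 to 0.0495, and each call was lost when any 1 of 7 to 12 particular mice was left out, without any change of direction. With TPM as deposited, without scaling, none of the 6 was called (adjusted p 0.220 to 0.461). In that fit the median of all genes itself lay at -0.21, 32 of the 33 genes were below 0 with a median of -0.50, and the calls over all genes were 75 higher and 145 lower, against 244 and 183 with scaling. Quantile normalization gave 27 of 33 below 0.

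**Figure D2:**
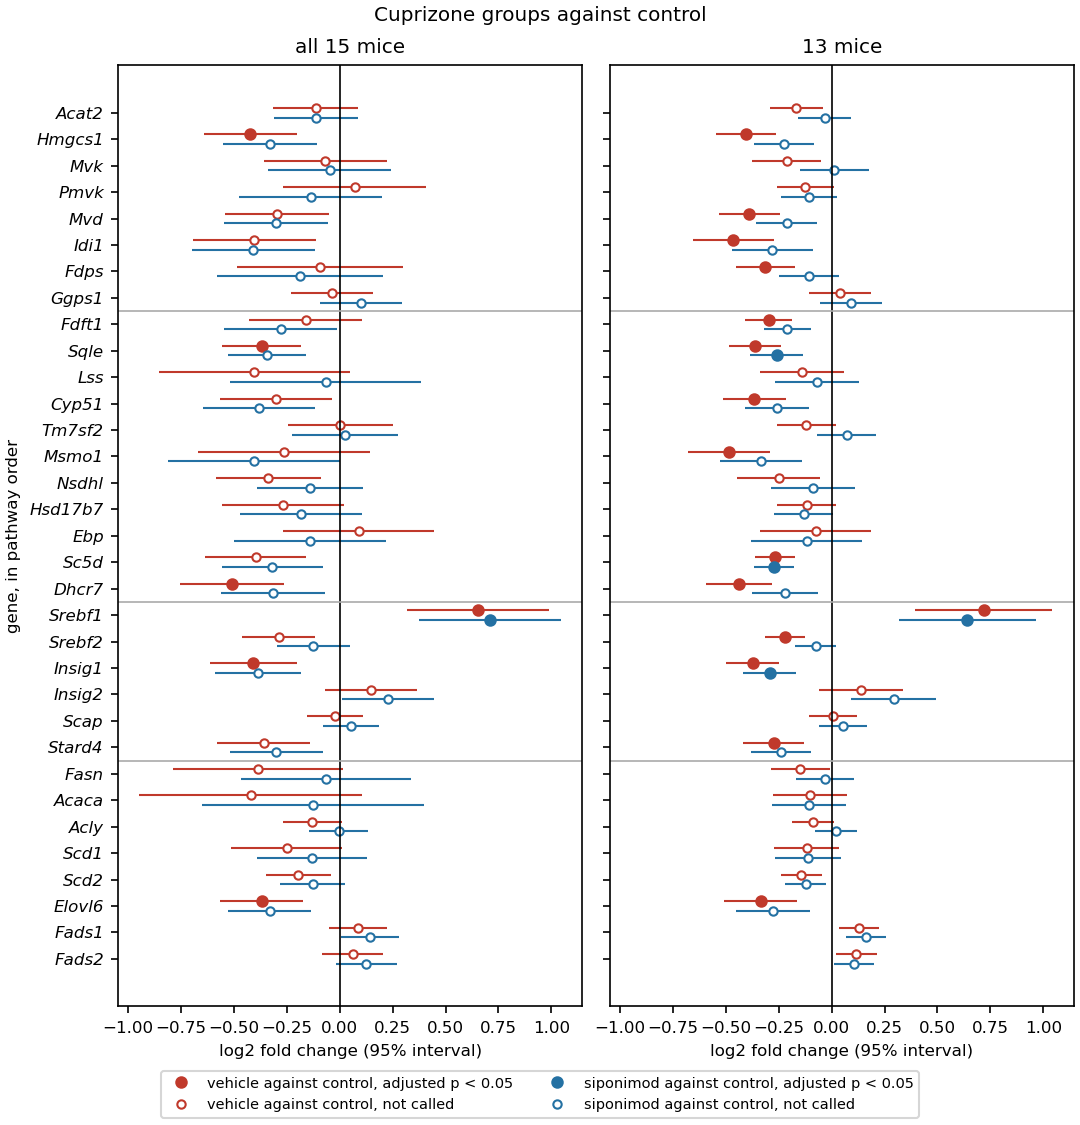
Log2 fold change with 95% interval of each gene in vehicle (red) and siponimod (blue) against control, with 15 mice on one panel and 13 on the other; filled points have an adjusted p below 0.05. The vehicle intervals are narrower with 13 mice, where 15 genes are called against 6 with 15 mice.

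The mevalonate segment begins with Acat2, which joins acetyl-CoA units, and Hmgcs1, the cytosolic HMG-CoA synthase (ENSMUSG00000093930, chromosome 13, 119690379 to 119708260 in GRCm38, GENCODE M21). Hmgcs1 was at 167, 191, 185, 185 and 171 scaled TPM in control mice 1 to 5, at 128, 129.6, 154, 141 and 119.7 in vehicle mice 1 to 5 and at 107, 153, 162, 156 and 143 in siponimod mice 1 to 5. Every cuprizone-fed mouse lay below every control mouse, and the lowest was siponimod mouse 1. In vehicle against control its log2 fold change was -0.42 ± 0.10 (SE) with 15 mice (adjusted p = 0.0440) and -0.40 ± 0.066 with 13 (adjusted p = 0.00208), or 1.34-fold and 1.32-fold lower. The call was lost on omission of control mouse 1, 2, 3, 4 or 5, vehicle mouse 2, 4 or 5 or siponimod mouse 2, 4 or 5 (adjusted p 0.0564 to 0.136). Quantile normalization also ended it (adjusted p = 0.0684).

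Further genes of the segment, Mvd, Idi1 and Fdps, fell with 13 mice but not with 15. Mvd, which decarboxylates mevalonate diphosphate, was at 21.6, 20.6, 19.4, 19.1 and 19.1 scaled TPM in control mice 1 to 5, at 20.9, 14.3, 15.8, 16.2 and 14.3 in vehicle mice 1 to 5 and at 12.5, 15.5, 17.5, 18.9 and 16.9 in siponimod mice 1 to 5. Vehicle mouse 1 lay among the control mice and the other 4 vehicle mice lay below all controls. For Mvd the vehicle to control log2 fold change was -0.30 ± 0.12 (SE) with 15 mice (adjusted p = 0.316) and -0.39 ± 0.067 with 13 (adjusted p = 0.00297). Idi1, the isopentenyl diphosphate isomerase, was at 32.9, 38.01, 34.4, 39.4 and 36.8 scaled TPM in control mice 1 to 5, at 32.3, 25.1, 31.2, 27.5 and 21.6 in vehicle mice 1 to 5 and at 18.8, 29.2, 32.3, 30.5 and 27.3 in siponimod mice 1 to 5. All cuprizone-fed mice were below the lowest control for Idi1, by a small margin in vehicle mouse 1 and siponimod mouse 3, with a log2 fold change of -0.40 ± 0.14 (SE) with 15 mice (adjusted p = 0.197) and -0.46 ± 0.090 with 13 (adjusted p = 0.00679).

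Fdps makes farnesyl pyrophosphate, the branch point towards sterols. It was at 78.2, 61.6, 70.6, 66.5 and 79.6 scaled TPM in control mice 1 to 5, at 123, 57.6, 58.5, 57.7 and 54.5 in vehicle mice 1 to 5 and at 49.7, 64.01, 68.6, 67.2 and 63.8 in siponimod mice 1 to 5. Vehicle mouse 1 stood far above every other mouse, whereas the other vehicle mice lay below all controls. Its log2 fold change was -0.093 ± 0.18 (SE) with 15 mice (adjusted p = 0.838) and -0.31 ± 0.066 with 13 (adjusted p = 0.0122). The remaining genes, Acat2, the kinases Mvk and Pmvk, and Ggps1, which makes geranylgeranyl pyrophosphate, were not called in either fit, with log2 fold changes of -0.11 to 0.072 with 15 mice and -0.21 to 0.041 with 13. In all, 1 of 8 mevalonate genes fell with 15 mice and 4 of 8 with 13, and 7 of 8 were below 0 in both.

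The sterol segment held 2 genes that fell with 15 mice, Sqle and Dhcr7, near its beginning and at its end. Sqle, the squalene monooxygenase (ENSMUSG00000022351, chromosome 15, 59315077 to 59331192), was at 40.4, 41.05, 44.8, 43.7 and 44.2 scaled TPM in control mice 1 to 5, at 32.2, 34.2, 35.7, 32.9 and 30.3 in vehicle mice 1 to 5 and at 26.6, 34.5, 38.9, 36.01 and 33.5 in siponimod mice 1 to 5. All 10 cuprizone-fed mice lay below the lowest control. For Sqle the log2 fold change in vehicle against control was -0.37 ± 0.087 (SE) with 15 mice (adjusted p = 0.0350) and -0.36 ± 0.058 with 13 (adjusted p = 0.00174), or 1.29-fold and 1.28-fold lower. The Sqle call ended on omission of control mouse 1, 2, 3, 4 or 5, vehicle mouse 2, 4 or 5 or siponimod mouse 2 or 5 (adjusted p 0.0529 to 0.110).

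Dhcr7, the last enzyme of the Kandutsch-Russell route (ENSMUSG00000058454, chromosome 7, 143823145 to 143848410), was at 23.3, 26.6, 24.6, 26.4 and 23.9 scaled TPM in control mice 1 to 5, at 14.03, 17.8, 19.9, 18.8 and 16.8 in vehicle mice 1 to 5 and at 15.2, 23.4, 21.7, 22.4 and 18.4 in siponimod mice 1 to 5. The vehicle mice lay below all controls, while siponimod mouse 2 reached the lowest control level. Its log2 fold change of -0.51 ± 0.12 (SE) with 15 mice (adjusted p = 0.0284) and -0.44 ± 0.073 with 13 (adjusted p = 0.00242) was, with 15 mice, the lowest among the 33 genes, 1.42-fold lower than control. This call was lost on omission of control mouse 1, 2, 3, 4 or 5 or vehicle mouse 2 or 5 (adjusted p 0.0516 to 0.0794).

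More sterol genes, Fdft1, Cyp51, Msmo1 and Sc5d, fell with 13 mice and were not called with 15. Fdft1, the squalene synthase, was at 54.2, 53.7, 54.1, 56.8 and 51.3 scaled TPM in control mice 1 to 5, at 70.5, 41.3, 48.2, 45.5 and 40.95 in vehicle mice 1 to 5 and at 36.5, 46.2, 48.3, 47.6 and 44.6 in siponimod mice 1 to 5. In vehicle mouse 1 it was above every control, and in the other 4 vehicle mice below every control, so the log2 fold change was -0.16 ± 0.13 (SE) with 15 mice (adjusted p = 0.662) and -0.30 ± 0.052 with 13 (adjusted p = 0.00331). Cyp51, the lanosterol demethylase, was at 30.8, 32.4, 30.7, 33.9 and 31.4 scaled TPM in control mice 1 to 5, at 30.8, 24.5, 27.1, 25.4 and 21.7 in vehicle mice 1 to 5 and at 17.2, 27.1, 28.1, 28.2 and 23.2 in siponimod mice 1 to 5. Again vehicle mouse 1 overlapped the controls and the other vehicle mice did not, and the log2 fold change was -0.30 ± 0.12 (SE) with 15 mice (adjusted p = 0.355) and -0.36 ± 0.070 with 13 (adjusted p = 0.00655).

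Msmo1 removes the methyl groups at carbon 4 of the sterol ring together with Nsdhl and Hsd17b7. It was at 78.05, 90.3, 78.3, 84.3 and 82.1 scaled TPM in control mice 1 to 5, at 127, 59.98, 69.1, 56.5 and 51.3 in vehicle mice 1 to 5 and at 50.8, 60.8, 71.6, 74.3 and 56.4 in siponimod mice 1 to 5. The level in vehicle mouse 1 was the highest of all 15, and those of the other 4 vehicle mice were below all controls. Its log2 fold change was -0.26 ± 0.19 (SE) with 15 mice (adjusted p = 0.653) and -0.48 ± 0.090 with 13 (adjusted p = 0.00535), and with unscaled TPM it was called with 15 mice as well (adjusted p = 0.0258). Sc5d, the lathosterol desaturase, was at 39.4, 40.8, 38.01, 40.9 and 38.1 scaled TPM in control mice 1 to 5, at 20.8, 32.5, 33.96, 33.5 and 30.8 in vehicle mice 1 to 5 and at 27.7, 32.8, 33.9, 31.98 and 31.7 in siponimod mice 1 to 5. For Sc5d vehicle mouse 1 was the lowest of all, and all 10 cuprizone-fed mice were below the controls. The log2 fold change of Sc5d was -0.40 ± 0.11 (SE) with 15 mice (adjusted p = 0.0902) and -0.27 ± 0.043 with 13 (adjusted p = 0.00195).

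The other sterol genes were not called in either fit. Lss, which closes the sterol rings, had a log2 fold change of -0.40 with 15 mice and -0.14 with 13, and Nsdhl of -0.34 and -0.25. Both were below all controls in every vehicle mouse, furthest in vehicle mouse 1. Hsd17b7 (-0.27 and -0.12), the sterol reductase Tm7sf2 (0.0034 and -0.12) and the sterol isomerase Ebp (0.090 and -0.075) overlapped the controls. Together, 2 of 11 sterol enzymes fell with 15 mice and 6 of 11 with 13, and 9 and 11 of them lay below 0.

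Among the regulators, Srebf1 rose and Insig1 fell with 15 mice, and with 13 mice Srebf2 and Stard4 fell as well. Srebf1 (ENSMUSG00000020538, chromosome 11, 60199089 to 60222581) was at 36.2, 27.8, 28.04, 44.8 and 29.7 scaled TPM in control mice 1 to 5, at 43.3, 48.4, 47.3, 49.7 and 75.7 in vehicle mice 1 to 5 and at 65.03, 46.8, 49.4, 53.9 and 55.9 in siponimod mice 1 to 5. Vehicle mouse 5 was the highest and vehicle mouse 1 the lowest of its group, just under control mouse 4. Its log2 fold change was 0.65 ± 0.16 (SE) with 15 mice (adjusted p = 0.0397) and 0.72 ± 0.15 with 13 (adjusted p = 0.0123), or 1.57-fold and 1.65-fold higher. The rise was lost on omission of control mouse 1, 2, 3 or 5, vehicle mouse 2, 3, 4 or 5 or siponimod mouse 2, 3, 4 or 5 (adjusted p 0.0517 to 0.110), with quantile normalization (adjusted p = 0.0700) and with mouse number as a block (adjusted p = 0.0542). Srebf1 overlaps Rai1 on the opposite strand, and the strand setting used in counting is not given in the sources used here.

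Srebf2, the SREBP gene tied mainly to cholesterol synthesis, was at 109, 104, 108, 104 and 104 scaled TPM in control mice 1 to 5, at 71.8, 86.4, 97.02, 95.8 and 84.4 in vehicle mice 1 to 5 and at 84.8, 101, 99.6, 98.7 and 102 in siponimod mice 1 to 5. Every cuprizone-fed mouse was below every control. Its log2 fold change was -0.29 ± 0.080 (SE) with 15 mice (adjusted p = 0.0852) and -0.22 ± 0.044 with 13 (adjusted p = 0.00863), so it fell with 13 mice and not with 15.

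Insig1 (ENSMUSG00000045294, chromosome 5, 28071363 to 28078662) is itself a well-known SREBP target. It was at 68.5, 67.7, 63.9, 75.1 and 68.5 scaled TPM in control mice 1 to 5, at 46.9, 52.7, 55.8, 53.8 and 49.5 in vehicle mice 1 to 5 and at 40.3, 54.6, 61.7, 56.6 and 51.4 in siponimod mice 1 to 5. All cuprizone-fed mice were below the lowest control, siponimod mouse 1 most of all. In vehicle against control the log2 fold change of Insig1 was -0.41 ± 0.10 (SE) with 15 mice (adjusted p = 0.0350) and -0.37 ± 0.058 with 13 (adjusted p = 0.00134), or 1.33-fold and 1.29-fold lower. It was not called on omission of control mouse 1, 2, 3, 4 or 5, vehicle mouse 2 or 5 or siponimod mouse 2 or 5 (adjusted p 0.0505 to 0.104).

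Insig2, the second retention protein, was at 27.1, 26.9, 32.1, 32.8 and 34.7 scaled TPM in control mice 1 to 5, at 35.1, 29.2, 32.1, 39.8 and 34.6 in vehicle mice 1 to 5 and at 30.2, 38.5, 34.5, 37.4 and 40.03 in siponimod mice 1 to 5. The groups overlapped and it was not called, with a log2 fold change of 0.15 ± 0.10 (SE) with 15 mice (adjusted p = 0.644) and 0.14 ± 0.093 with 13 (adjusted p = 0.535). Scap, the escort protein, was at 42.1, 39.9, 37.6, 39.2 and 45.9 scaled TPM in control mice 1 to 5, at 36.97, 41.4, 41.2, 41.4 and 40.2 in vehicle mice 1 to 5 and at 42.5, 42.9, 42.9, 40.2 and 43.8 in siponimod mice 1 to 5. Those groups overlapped as well, and the log2 fold change was -0.023 ± 0.062 (SE) with 15 mice (adjusted p = 0.878) and 0.0063 ± 0.053 with 13 (adjusted p = 0.972). Stard4, a cytosolic sterol carrier, was at 14.8, 15.4, 12.8, 14.6 and 14.6 scaled TPM in control mice 1 to 5, at 8.69, 11.02, 12.5, 12.4 and 11.5 in vehicle mice 1 to 5 and at 9.69, 11.6, 13.1, 11.6 and 12.3 in siponimod mice 1 to 5. Every vehicle mouse was below every control, by a narrow margin because control mouse 3 was low. Stard4 fell with 13 mice and not with 15, with a log2 fold change of -0.36 ± 0.10 (SE) with 15 mice (adjusted p = 0.0981) and -0.27 ± 0.067 with 13 (adjusted p = 0.0307).

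Of the 8 fatty acid enzymes, 1, Elovl6, fell, and the count was the same with 13 mice. Elovl6 (ENSMUSG00000041220, chromosome 3, 129532355 to 129638495) was at 16.1, 18.2, 15.9, 17.6 and 18.7 scaled TPM in control mice 1 to 5, at 12.1, 12.96, 15.3, 14.6 and 11.8 in vehicle mice 1 to 5 and at 11.7, 14.2, 15.5, 13.9 and 13.1 in siponimod mice 1 to 5. All 10 cuprizone-fed mice were below the lowest control. Its log2 fold change was -0.37 ± 0.092 (SE) with 15 mice (adjusted p = 0.0495) and -0.34 ± 0.081 with 13 (adjusted p = 0.0288), or 1.29-fold and 1.26-fold lower. The call was the closest of the 6 to the threshold: it was lost on omission of control mouse 1, 2, 3, 4 or 5, vehicle mouse 2 or 5 or siponimod mouse 2, 3, 4 or 5 (adjusted p 0.0512 to 0.151), with a pseudocount of 1 (adjusted p = 0.0505), without the filter on low values (0.0545) and with mouse number as a block (0.0603).

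The core enzymes of fatty acid synthesis were not called. Fasn, the fatty acid synthase, was at 104, 94.9, 83.3, 86.5 and 85.3 scaled TPM in control mice 1 to 5, at 35.5, 83.3, 82.4, 81.8 and 79.3 in vehicle mice 1 to 5 and at 78.9, 97.4, 88.6, 87.2 and 81.5 in siponimod mice 1 to 5. All vehicle mice lay below the lowest control, vehicle mouse 1 far below and the highest of the others by a narrow margin, and the log2 fold change of Fasn was -0.38 ± 0.19 (SE) with 15 mice (adjusted p = 0.490) and -0.15 ± 0.064 with 13 (adjusted p = 0.283). Acaca, the acetyl-CoA carboxylase, went the same way, from -0.42 with 15 mice to -0.10 with 13. Acly, which supplies cytosolic acetyl-CoA, was at -0.13 and -0.086. The stearoyl-CoA desaturases Scd1 (-0.25 and -0.12) and Scd2 (-0.20 and -0.14) are close paralogs, so the split of reads between them is uncertain.

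Scd2 had the highest level of the list, at 419 to 503 scaled TPM in control, 345 to 424 in vehicle and 414 to 430.0 in siponimod mice. The polyunsaturated fatty acid desaturases lay slightly above control. Fads1 had a log2 fold change of 0.085 ± 0.064 (SE) with 15 mice (adjusted p = 0.655) and 0.13 ± 0.044 with 13 (adjusted p = 0.140). Fads2 was at 72.4, 71.3, 78.3, 74.3 and 74.3 scaled TPM in control mice 1 to 5, at 66.4, 85.1, 76.6, 76.1 and 84.3 in vehicle mice 1 to 5 and at 85.7, 80.97, 77.2, 82.5 and 78.7 in siponimod mice 1 to 5. It overlapped between vehicle and control mice, with a log2 fold change of 0.062 ± 0.068 (SE) with 15 mice (adjusted p = 0.723) and 0.12 ± 0.044 with 13 (adjusted p = 0.199).

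**Figure D3:**
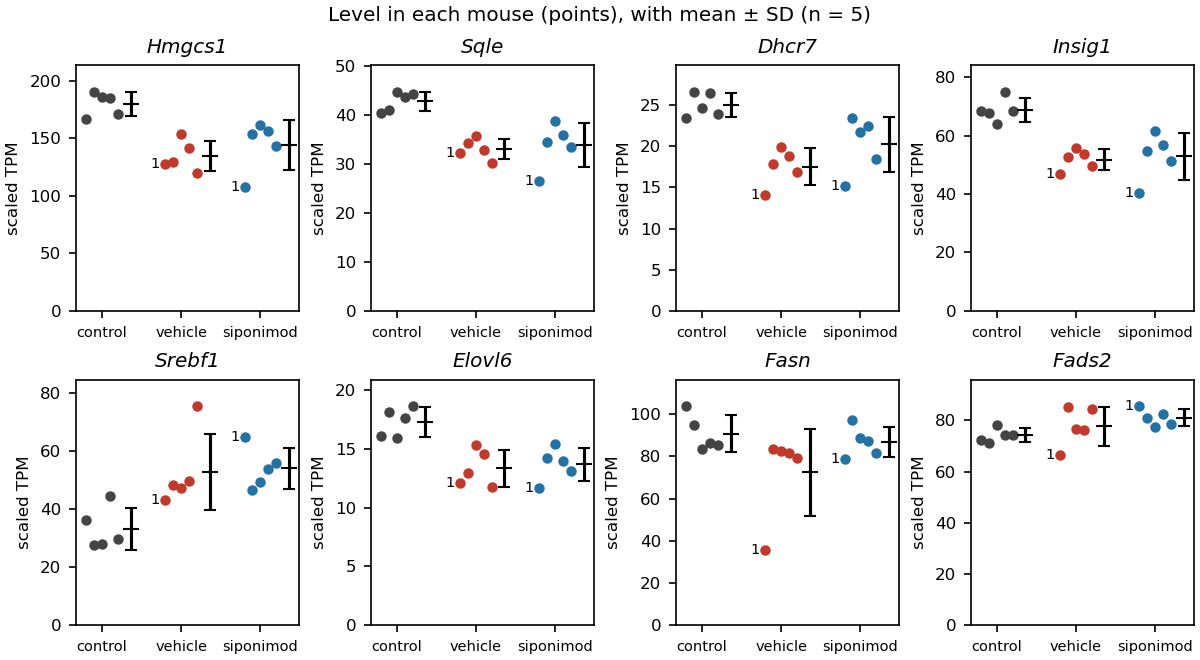
Scaled TPM of 8 genes in each mouse (points, mice 1 to 5 from left to right in each group, with mouse 1 of each cuprizone group numbered) with the mean and SD of 5 mice; axes start at 0. Hmgcs1, Sqle, Insig1 and Elovl6 are below every control in all 10 cuprizone-fed mice, Srebf1 is mostly above, and Fasn, below every control in all 5 vehicle mice, is farthest below in vehicle mouse 1 and close to the lowest control in the others.

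Vehicle mouse 1 stood apart from its group in many of these genes. Set against the mean of the other 4 vehicle mice, it was highest for Msmo1 (1.10 log2), Fdps (1.10) and Pmvk (0.98) and lowest for Acaca (-1.59), Lss (-1.31) and Fasn (-1.19). It was the lowest of its group for 18 of the 33 genes and the highest for 11. The 12 genes above the other vehicle mice had a median longest coding transcript of 1900 bases (GENCODE M21), and the 21 below them one of 4426 bases. Across the 33 genes, which are not independent, this difference and the log2 transcript length had a Pearson r of -0.82 and a Spearman rho of -0.76. The part of transcript length in the results was not tested.

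Siponimod mice, compared with control, had 1 gene called with 15 mice and it was the same one that rose in vehicle mice. Srebf1 rose 1.63-fold (log2 fold change 0.71 ± 0.16 (SE) with 15 mice (adjusted p = 0.0377) and 0.64 ± 0.15 with 13 (adjusted p = 0.0407)), and here every siponimod mouse was above every control. The call was lost on omission of control mouse 1, 2, 3 or 5, vehicle mouse 2, 3 or 4 or siponimod mouse 1, 2, 3, 4 or 5 (adjusted p 0.0541 to 0.129), with unscaled TPM (0.650), quantile normalization (0.0667) and mouse number as a block (0.0585). Over all tested genes 1.18% were called, 0.429% higher and 0.751% lower, and 1 and 0 of the 33 were. Both comparisons use the same control mice, so they are not independent.

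With 13 mice 3 genes, Sqle, Sc5d and Insig1, fell in siponimod mice and Srebf1 rose, against a background of 2.2% called, 1.23% lower and 0.977% higher. Sqle had a log2 fold change of -0.34 ± 0.087 (SE) with 15 mice (adjusted p = 0.0873) and -0.26 ± 0.058 with 13 (adjusted p = 0.0280). Sc5d had one of -0.32 ± 0.11 (SE) with 15 mice (adjusted p = 0.347) and -0.27 ± 0.043 with 13 (adjusted p = 0.00268). For Insig1 it was -0.39 ± 0.10 (SE) with 15 mice (adjusted p = 0.0794) and -0.29 ± 0.058 with 13 (adjusted p = 0.0133). The differences were no smaller with 15 mice, but their adjusted p was above 0.05. Without vehicle mouse 1 alone, which bears on this comparison only through the shared spread, 8 genes were called: Srebf1 higher and Fdft1, Sqle, Msmo1, Sc5d, Insig1, Stard4 and Elovl6 lower. Of all genes 2.99% were called in that fit, 1.41% higher and 1.58% lower.

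The list as a whole lay below control in siponimod mice too. In the 15-mouse fit 26 of 33 genes were below 0, with a median log2 fold change of -0.14 against 0.0039 over all genes. In 11 genes every siponimod mouse was below every control mouse (2.23% of all tested genes) and in 1, Srebf1, above (2.7%). With 13 mice the counts were 11 lower (2.64%) and 2 higher, Srebf1 and Fads1 (3.35%). For Hmgcs1 the siponimod to control log2 fold change was -0.33 ± 0.10 (SE) with 15 mice (adjusted p = 0.241) and -0.23 ± 0.066 with 13 (adjusted p = 0.117). For Dhcr7 it was -0.31 ± 0.12 (SE) with 15 mice (adjusted p = 0.402) and -0.22 ± 0.073 with 13 (adjusted p = 0.190). Elovl6 stood at -0.33 ± 0.092 (SE) with 15 mice (adjusted p = 0.138) and -0.28 ± 0.081 with 13 (adjusted p = 0.116). Those 3 genes, which fell in vehicle mice, were not called in siponimod mice in either fit, but a call in one comparison and not in the other does not show a difference between the treatments. The authors' deposited table gave 12 of the 33 genes as lower and 2, Srebf1 and Fads1, as higher, against 2.6% and 2.55% of its 19264 genes. Among the 12 were the same 3 genes: Hmgcs1 (-0.26, authors' adjusted p = 3.4e-05), Dhcr7 (-0.24, 0.0041) and Elovl6 (-0.29, 0.00033).

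Set directly against vehicle mice, siponimod mice had no called gene, in the list or elsewhere. By limma 0 of 17714 genes passed in either fit (0% called), while 801 had an unadjusted p below 0.05 with 15 mice and 1570 with 13. Of the 33 genes, 0 and 9 did, and the smallest adjusted p were 0.778 and 0.427. Their log2 fold changes ran from -0.23 to 0.34 with 15 mice, with 95% intervals reaching from -0.59 to 0.82. With 13 mice the range was -0.076 to 0.22, and the intervals reached from -0.42 to 0.40. A miss of the threshold does not show that the treatments acted alike.

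The genes that fell in vehicle mice were not called as higher in siponimod mice. Hmgcs1 differed by 0.093 (95% interval -0.13 to 0.31) with 15 mice and 0.18 (95% interval 0.029 to 0.33) with 13. Sqle differed by 0.026 (95% interval -0.16 to 0.21) and 0.10 (95% interval -0.029 to 0.23). Dhcr7 differed by 0.20 (95% interval -0.049 to 0.44) and 0.22 (95% interval 0.054 to 0.38). Each of these 15-mouse intervals included 0, and the 13-mouse intervals of Hmgcs1 and Dhcr7 did not, without adjustment. Siponimod mouse 1, left out of the 13-mouse fit, was the lowest of its group for both genes, so its omission raises the siponimod mean. Vehicle mouse 1, also left out, was the lowest of its group for Dhcr7. Insig1 was at 0.021 (95% interval -0.18 to 0.23) and 0.080 (95% interval -0.050 to 0.21). Elovl6 was at 0.037 (95% interval -0.16 to 0.23) and 0.058 (95% interval -0.12 to 0.24). Srebf1 was at 0.055 (95% interval -0.28 to 0.39) and -0.076 (95% interval -0.42 to 0.27), so its higher level than in control was not called different between the cuprizone groups.

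With 15 mice 8 of the 33 genes were lower in siponimod than in vehicle mice and 25 higher, and with 13 mice 6 were lower. Of all 17714 tested genes, 9242 were lower with 15 mice and 7744 with 13. Unscaled TPM gave 0 lower and quantile normalization 6, and in the unscaled fit the median of all genes was itself 0.21. No gene of the list had groups that did not overlap with 15 mice (0.689% of all genes were higher and 0.344% lower in this way). With 13 mice every siponimod mouse was above every vehicle mouse for Fdps, Srebf2 and Acly (4.31% of all genes), and none of the list was below (1.99%). Siponimod mouse 1, left out there, was the lowest of its group for each of them. Vehicle mouse 1, also left out, was the lowest of its group for Srebf2 and Acly and the highest for Fdps. Fdps differed by -0.094 (95% interval -0.49 to 0.30) with 15 mice and 0.21 (95% interval 0.057 to 0.35) with 13, so its direction differed with the mice left out, vehicle mouse 1 being high and siponimod mouse 1 low for Fdps. Srebf2 differed by 0.16 (95% interval -0.0075 to 0.33) and 0.14 (95% interval 0.045 to 0.24). In the authors' deposited table the same pair of genes was higher in siponimod mice, Fdps by 0.17 (adjusted p = 0.0332) and Srebf2 by 0.15 (adjusted p = 0.0380), against 1.41% of 13589 genes.

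**Figure D4:**
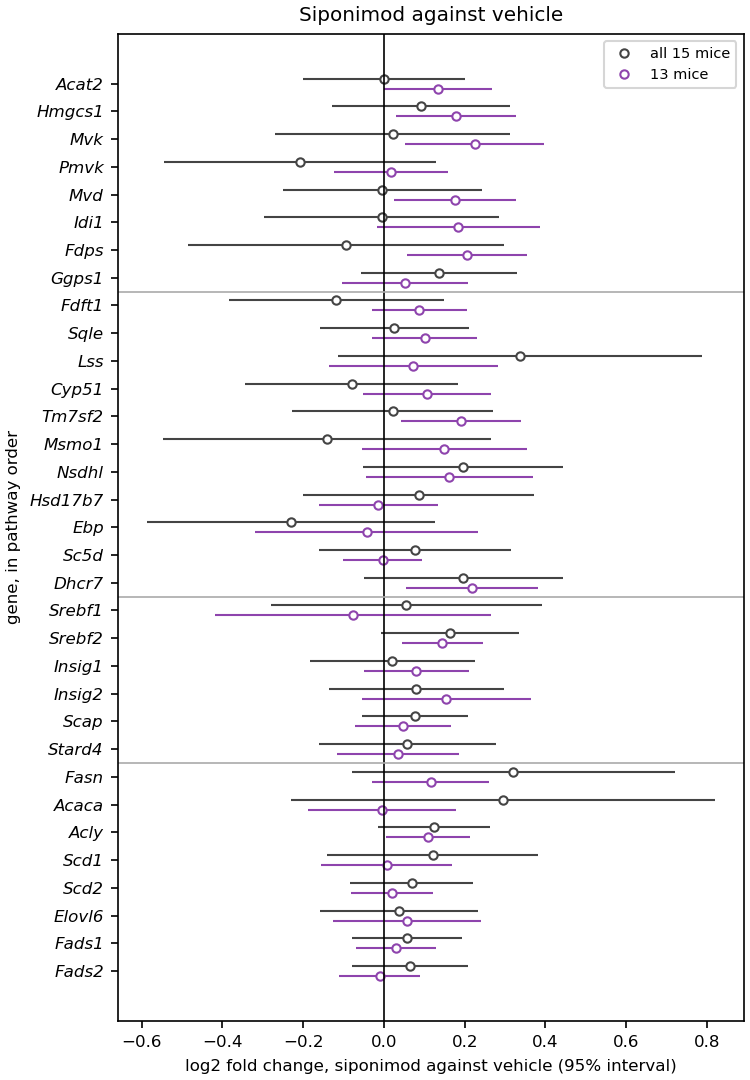
Log2 fold change of siponimod against vehicle with its 95% interval for each of the 33 genes, with 15 mice and with 13. No gene was called, the 15-mouse intervals are wide for genes in which vehicle mouse 1 stood apart such as Fasn, Acaca and Lss, and most 13-mouse values lie slightly above 0.

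Other genes of the same pathways were counted in the same way. Of 19 genes of SREBP processing, sterol-driven degradation and the dolichol, ubiquinone and prenylation branches, 0 were called by limma in any comparison. Of all tested genes, 2.41% were called in vehicle against control with 15 mice, so 0 of 19 does not stand apart from the background. In that comparison 1 of the 19 had an unadjusted p below 0.05, as did 1921 of all 17714 tested genes. Of 25 genes of fatty acid supply, elongation and activation, 24 were tested, and 1 rose and 2 fell in vehicle mice (1.38% and 1.03% of all tested genes did). Mid1ip1, which promotes assembly of acetyl-CoA carboxylase, rose by 0.53 ± 0.10 log2 (SE, adjusted p = 0.00654). Elovl1, an elongase of very long saturated chains, fell by 0.45 ± 0.086 log2 (adjusted p = 0.00972). Elovl7, another elongase, fell by 0.63 ± 0.14 log2 (adjusted p = 0.0255). With 13 mice the lipogenic gene Thrsp fell too (-0.46, adjusted p = 0.00859), where 1.95% of all tested genes fell.

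The same 3 of 24 genes were called in siponimod mice, against 1.18% of all tested genes. Mid1ip1 rose by 0.44 log2 (adjusted p = 0.0339), Elovl1 fell by 0.44 (0.0162) and Elovl7 by 0.66 (0.0287). With 13 mice Acsl3, an acyl-CoA synthetase, fell as well (-0.19, adjusted p = 0.0407), where 1.23% of all tested genes fell. None of these genes was called between siponimod and vehicle.

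Mouse by mouse, the roles spread differently. The median log2 difference of the 11 sterol enzymes from the control mean was -0.40 to -0.21 in vehicle mice and -0.50 to -0.14 in siponimod mice, against -0.050 to 0.053 in controls. All 10 cuprizone-fed mice thus had lower sterol enzyme medians than any control. The mevalonate medians were -0.36 to -0.20 in vehicle mice 2 to 5 and 0.085 in vehicle mouse 1, and -0.47 to -0.077 in siponimod mice. Controls ranged from -0.11 to 0.073, so siponimod mice 3 and 4 overlapped them and vehicle mouse 1 lay above them all. The fatty acid medians were -0.45 in vehicle mouse 1, -0.17 to -0.060 in the other vehicle mice and -0.17 to -0.024 in siponimod mice, overlapping the control range of -0.11 to 0.052. Regulator medians overlapped as well, and within them Srebf1 lay above and Insig1 and Srebf2 below control.

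Oligodendrocyte marker sums were lower in all cuprizone-fed mice than in any control, as the sterol medians were, but did not order the mice of a group in the same way in every role. The lowest sums were 311 in vehicle mouse 5 and 377 in siponimod mouse 1, and the mevalonate medians of those mice, -0.36 and -0.47, were the lowest of their groups. Siponimod mouse 1 also had the lowest median of its group in the other 3 roles. Vehicle mouse 1, the library with 35.3% of its TPM from Bc1, had a sum of 628, above those of vehicle mice 2, 3 and 5. Its sterol (-0.40), regulator (-0.34) and fatty acid (-0.45) medians were the lowest of its group. The sterol median of vehicle mouse 5 was close to it, at -0.39. In vehicle mice 5, 2, 3 and 4, with sums of 311, 465, 548 and 671, sterol medians were -0.39, -0.28, -0.21 and -0.23. In siponimod mice 1, 2, 5, 3 and 4, the sums were 377, 462, 625, 631 and 743. Their sterol medians were -0.50, -0.26, -0.27, -0.14 and -0.15. Vehicle mouse 1 aside, mice with lower sums thus mostly had lower sterol medians within their group. The part of the oligodendrocyte marker level in the result was not tested.

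**Figure D5:**
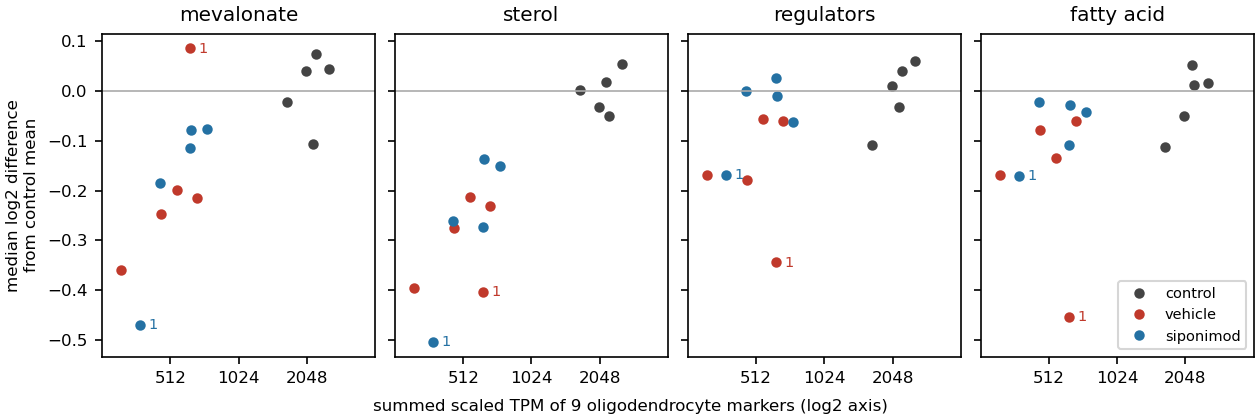
Median log2 difference from the control mean of the genes of each role (y axis) in each mouse, against the summed scaled TPM of 9 oligodendrocyte markers in that mouse (x axis, log2 scale); vehicle and siponimod mouse 1 are numbered. All 10 cuprizone-fed mice have marker sums of 311 to 743 and sterol medians below those of the controls, whose sums are 1670 to 2565, and vehicle mouse 1 is apart from its group in the mevalonate, regulator and fatty acid panels.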

How the data were processed

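Total RNA of 15 mice (5 control, 5 vehicle, 5 siponimod) was sequenced. Per the labels' protocols, libraries came from a stranded total RNA kit with ribosomal RNA depletion; a heading in the deposited tables names a 3′ mRNA analysis instead, and this was not resolved. Per the submitters' processing notes, the tools were Salmon 1.4.0, STAR 2.6.1d, Trim Galore 0.6.6 and bcl2fastq, and the build mm10. The authors deposited TPM per gene and mouse in 3 tables, which held the same TPM (largest difference 0). The deposited tables also hold the authors' log2 fold changes, p-values and adjusted p-values, test scores and mean signal per gene; the fold changes and adjusted p-values are quoted as the authors'. TPM keep no depth, so the depth is unknown and intervals cover the spread between mice only.

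TPM were scaled to a common median, log2(scaled TPM + 0.5) was fitted with limma 3.58.1 (R 4.3.3, empirical Bayes with trend, 12 residual degrees of freedom, 10 with 13 mice), and p-values were adjusted by Benjamini-Hochberg over 17714 genes. The fit was run on simulated data with independent normal noise for each gene. These data held no library like vehicle mouse 1, so they do not show how such a library affects the fit. Intervals are 95%. Fold changes are on the log2(scaled TPM + 0.5) scale, which understates changes of low genes. Values of every mouse are given for genes called against control in either fit and for regulators. The 33 genes, the related genes, the markers and the mice left out were chosen with earlier results of these data known. Alternatives were unscaled TPM, quantile normalization, other pseudocounts, no filter, mouse number as a block, leaving out mice, and array quality weights. Coordinates are from GENCODE M21 (GRCm38). Of the 33 genes, 12 overlap a gene on the opposite strand, among them Srebf1, Cyp51 (Akap9), Fdft1 (Ctsb) and Ggps1 (Arid4b), and their reads cannot be told apart if strand was not used.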

Additional observations from a re-analysis of the deposited data

Results flagged for a closer look

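For each of the 33 genes, each group of 5 mice was examined for a mouse far from the other 4. The gap rule marked 18 of 99 groups, where chance alone marks about 1 in 20. Vehicle mouse 1 accounted for 12 of them and siponimod mouse 1 for 2. In scaled TPM, vehicle mouse 1 was high for Mvk (27.9), Pmvk (77.8), Fdps (123), Fdft1 (70.5), Tm7sf2 (35.3) and Msmo1 (127). It was low for Lss (6.11), Sc5d (20.8), Scap (37.0), Fasn (35.5), Acaca (7.05) and Scd2 (345). Siponimod mouse 1 was low for Fdps (49.7) and Srebf2 (84.8). The remaining 4 were control mouse 1, high for Mvk (22.9), control mouse 3, low for Stard4 (12.8), vehicle mouse 5, high for Srebf1 (75.7), and siponimod mouse 5, low for Ggps1 (38.9). Vehicle mouse 1 is also the library with 35.3% of its TPM from Bc1. The part of that library's makeup in these values was not tested.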

How the results depend on the processing

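With 15 mice 427 genes were called in vehicle against control, 209 in siponimod against control and 0 in siponimod against vehicle, with 6, 1 and 0 of the 33 genes. Without scaling the first 2 counts were 220 and 132, with 1 and 0 of the 33, and quantile normalization left 0 of the 33 in siponimod against control. Without vehicle mouse 1 and siponimod mouse 1 the counts were 773 and 390, with 15 and 4 of the 33; 416 of the 427 and 209 of the 209 genes were called in both fits. Array quality weights, added after the data were seen, gave 697 and 552 genes and 11 and 8 of the 33, with a weight of 0.0364 for vehicle mouse 1 against 0.788 to 2.04. Leaving out each mouse gave 267 to 672 genes and 0 to 11 of the 33 in vehicle against control, 151 to 529 and 0 to 8 in siponimod against control, and 0 to 0 in siponimod against vehicle. With mouse number as a replicate block, 369 and 181 genes and 4 and 0 of the 33 were called. Mice of the same number correlated weakly: 3 of 15 same-number correlations of deviations were over 0.1 (range -0.070 to 0.21). In 5 of those 15 pairings the vehicle or siponimod mouse correlated best with the control mouse (or vehicle mouse, for siponimod against vehicle) of its own number. Whether the numbers pair the mice was not settled. No called gene of the 33 changed direction under any of these settings. Where counts moved, the cause was not tested. The depth of the libraries is unknown, and 5 mice a group limit what could be called.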
